A study of Mus musculus with 2 samples.

Results

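Imprinted genes outside the Dlk1-Dio3 cluster were examined in the lower jaw of the mouse fetus. A list of 40 genes of imprinted domains was taken, and the probe sets that the platform annotation assigns to them were read on each of 2 arrays. 1 array held RNA of wild-type mandible on the BALB/c background at E18.5, and 1 held RNA of mandible null for both Myf5 and MyoD on that background at the same age. Myf5 and MyoD direct cells into the skeletal muscle lineage, and the series asks about the role of that muscle in the growing mandible. The sources used here do not give the number of embryos behind each array. Of the 40 genes, 34 had a probe set of their own, and each had no more than 1. A further 3 (Gnas, Snrpn and Ube3a) were covered by a probe set shared with other genes, and H19, Kcnq1ot1 and Zrsr1 are not analysed here. The whole table covered 19938 genes. Of the targeted genes, Myf5 was at 6.31 on the wild-type and 4.95 on the double-knockout array and Myod1 at 7.14 and 6.49, the last still above the level of 6.21 below which signals were treated as low. Both were lower in the double knockout, and where their probe sets lie relative to the deleted parts is unknown here, so the Myod1 signal that remains does not check the label.

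Imprinted genes are expressed from 1 parental copy, because marks laid down in the egg or the sperm, mostly DNA methylation, silence the other. They lie in domains, in each of which an imprinting control region sets the activity of several neighbours. Many paternally expressed genes, such as Mest, Peg3 and Plagl1, are known in fetal growth, and maternally expressed Cdkn1c, Grb10 and Phlda2 are known to restrain it. Several are abundant in fetal mesenchyme, cartilage and muscle and decline after birth. A 1-colour array sums RNA from both parental copies, so it measures the level of a gene and not its imprint.

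Values are deposited signals on a log2 scale, on which 1 unit is a 2-fold step. Low signals were raised to a floor, the median signal of probe sets naming 1 gene (6.20 for the wild type, 6.21 for the double knockout). A difference is double knockout minus wild type, and with 1 side at the floor its fold is a lower bound, written "at least". Where 2 values are given for a gene, they are deposited signals with the wild type first. With 1 array per genotype no test and no replicate check is possible, and no p-value is printed. Spread could be gauged only between probe sets of a gene. Over 528 genes with several of them above the floor, the differences of the brightest pair differed with an SD of 0.22. No member had a second probe set, so this check could not be made for any of them. Signals of different probe sets are not comparable as amounts of RNA.

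The members were on balance lower in the double knockout, and a few of them strongly. Zdbf2, Peg10, Slc38a4 and Zim1 lay at least 2-fold below the wild type, and 0 members that far above it. Of the 34 members with a probe set, 21 exceeded the floor on both arrays, 4 in the wild type alone, 3 in the double knockout alone, and 6 on neither array. The 4 genes made up 14.3% of the 28 members measured on at least 1 array. Among all 10336 genes measured, 2.74% were lower by 2-fold or more and 0.513% higher by 2-fold or more. At 1.5-fold, 7 members were lower, with Ndn, Cdkn1c and Magel2 added, and 0 higher, beside 5.11% and 3.06% of all genes. The difference was below 0 in 20 of the 28 members, or 71.4%, against 32.2% of all genes measured. Once the median of all genes was shifted to 0, 24 of the 28 were below 0, against 50% of all genes by construction. With every value kept as deposited and no floor, 21 of all 34 members were below 0, beside 37.0% of all 19938 genes. Without a floor 6 members were at least 2-fold lower, with Magel2 and Ddc added, beside 2.16% of all genes. The median difference was -0.20 over the 28 members and 0.10 over all genes. The filter keeps some members by the side on which they were higher, so these counts describe those measured and not the whole list. Of the 21 members above the floor on both arrays, 9 had a difference smaller than the SD of 0.22 between probe sets of a gene.

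The promoters of the 4 lowest members are shown because these genes carry the largest differences and Myf5 and MyoD bind E-boxes, the hexamer CANNTG. RefSeq starts (build GRCm38.p6) were held for 3 of the 4, with 2 starts for Zdbf2, 3 for Slc38a4 and 1 for Zim1. The 250 bases before the start are printed 5′ to 3′ in the direction of the gene, with every CANNTG in capitals. Both Zdbf2 starts are given, and the first listed of the Slc38a4 starts.
Zdbf2, upstream start, chr1:63200108-63200357, + strand: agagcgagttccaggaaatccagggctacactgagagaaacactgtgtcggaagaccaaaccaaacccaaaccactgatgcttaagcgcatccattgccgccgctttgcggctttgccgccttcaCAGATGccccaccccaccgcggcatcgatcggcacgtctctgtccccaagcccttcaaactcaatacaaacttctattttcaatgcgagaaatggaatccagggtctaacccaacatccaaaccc
Zdbf2, downstream start, chr1:63273019-63273268, + strand: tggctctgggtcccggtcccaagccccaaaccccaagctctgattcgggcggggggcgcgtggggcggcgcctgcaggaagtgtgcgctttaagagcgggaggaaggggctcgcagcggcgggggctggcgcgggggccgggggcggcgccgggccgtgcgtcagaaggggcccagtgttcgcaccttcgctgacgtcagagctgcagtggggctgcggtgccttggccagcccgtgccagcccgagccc
Slc38a4, chr15:97055957-97056206, - strand: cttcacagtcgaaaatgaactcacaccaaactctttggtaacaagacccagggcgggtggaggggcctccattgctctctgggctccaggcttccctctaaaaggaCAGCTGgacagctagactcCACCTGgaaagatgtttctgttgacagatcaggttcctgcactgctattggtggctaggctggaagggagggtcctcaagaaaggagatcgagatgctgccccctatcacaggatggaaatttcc
Zim1, chr7:6696433-6696682, - strand: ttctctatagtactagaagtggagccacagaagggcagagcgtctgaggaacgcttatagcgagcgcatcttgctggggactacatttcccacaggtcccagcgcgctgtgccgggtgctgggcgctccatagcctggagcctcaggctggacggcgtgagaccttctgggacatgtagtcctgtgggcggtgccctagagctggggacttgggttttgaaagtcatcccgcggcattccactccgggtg
The window of the upstream Zdbf2 start held 1 CANNTG. The Slc38a4 window held 2, of which 1 was CAGCTG, and the downstream Zdbf2 and the Zim1 windows held 0. Over all 6 starts of these genes, 66.7% held a CANNTG, beside 66.2% of the 32851 windows of that length over all RefSeq starts and 67.9% of the 53 windows of the members. CAGCTG, which is a case of CANNTG, was in 13.2% of the members' windows and 13% of all. Both motifs read alike on either strand. The hexamer TGCCGC, which the imprint-keeping factor ZFP57 binds when methylated, was searched on both strands. It was in 17.0% of the members' windows and 8.68% of all windows, and it occurred 3 times before the upstream Zdbf2 start and 1 time before Zim1. The members' windows held a median of 11 CpG pairs against 6 over all starts, and TGCCGC itself contains a CpG. These matches describe the letters of the windows alone. The array does not tell which start a probe set reads.

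Zdbf2 differed most among the members. It encodes a zinc finger protein, is expressed from the paternal copy, and is known from a long transcript that opens the locus in the embryo. Its signal was 9.04 in wild-type and 6.12 in double-knockout mandible, the latter just under the floor, so it was at least 7.12-fold lower. Only 60 of the 10336 genes had a lower difference. Peg10, a paternally expressed gene derived from a retrotransposon and needed in the placenta, was at 11.31 and 9.73, in the same order, or 2.99-fold lower, and 160 genes were lower still. Slc38a4, a paternally expressed carrier of neutral amino acids, was at 9.16 and 7.85, or 2.47-fold lower. Zim1, a maternally expressed zinc finger gene beside Peg3, was at 10.32 and 9.20, or 2.17-fold lower. With the floor it was the member nearest the threshold on the inside, and Ndn, at 1.85-fold, the nearest outside. Deposited values of Magel2 (2.17-fold lower) and Ddc (2.52-fold lower) differed by more than those of Ndn. Skeletal muscle RNA differed between the same arrays: all 20 muscle markers listed exceeded the floor in wild-type mandible and 2 did so without Myf5 and MyoD, and their summed linear signal was 50418 against 790. In bulk tissue, fewer cells of a type and less RNA per cell cannot be told apart, and the part of muscle in the members' differences was not tested.

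**Figure D1:**
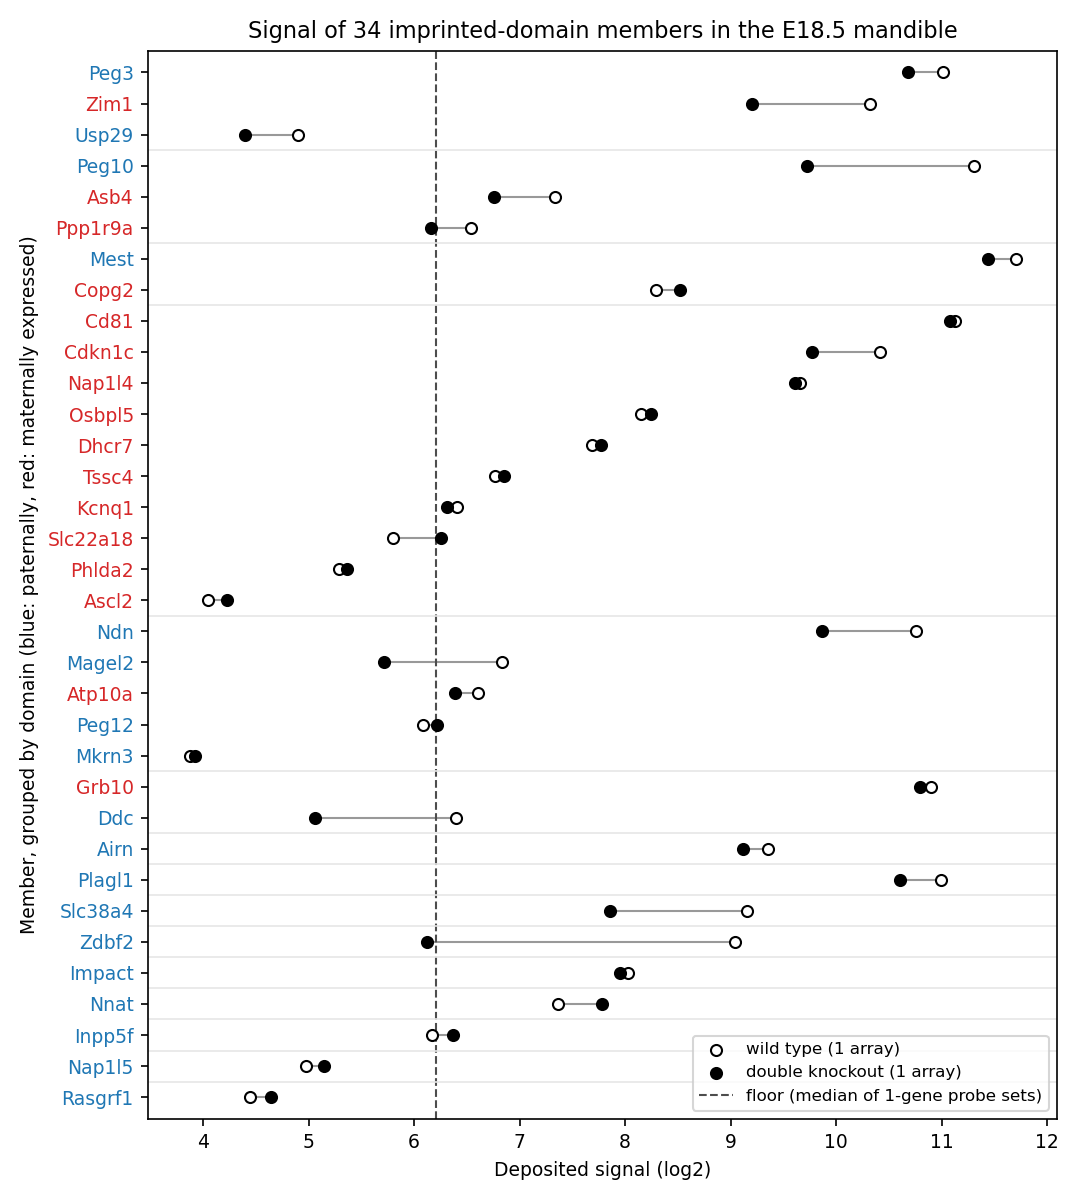
Deposited log2 signal of the 34 members with their own probe set in the wild type (open circles) and the double knockout (filled circles), by domain, with the floor as a dashed line and paternally expressed genes in blue, maternally expressed in red. The longest line belongs to Zdbf2 (9.04 to 6.12), followed by Peg10 (11.31 to 9.73); most lines of the Kcnq1 domain are short.

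Members with a high signal were all lower, a split made after the values were seen. Of the 28 measured members, 9 had a wild-type signal of 10 or above, namely Mest, Peg10, Cd81, Peg3, Plagl1, Grb10, Ndn, Cdkn1c and Zim1. The difference was below 0 in all 9, with a median of -0.39. Those of Cd81 (-0.04) and Grb10 (-0.10) were smaller than the SD of 0.22 between probe sets of a gene. Among all 526 genes with such a signal, 44.9% were below 0 (62.5% once the median of all genes was shifted to 0) and the median was 0.03. At least 2-fold lower were 2 of the 9, Peg10 and Zim1, and 10.6% of the 526, a larger share than among all genes. Choosing genes by their wild-type signal can favour lower differences in either set, and its part in these values was not tested.

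**Figure D2:**
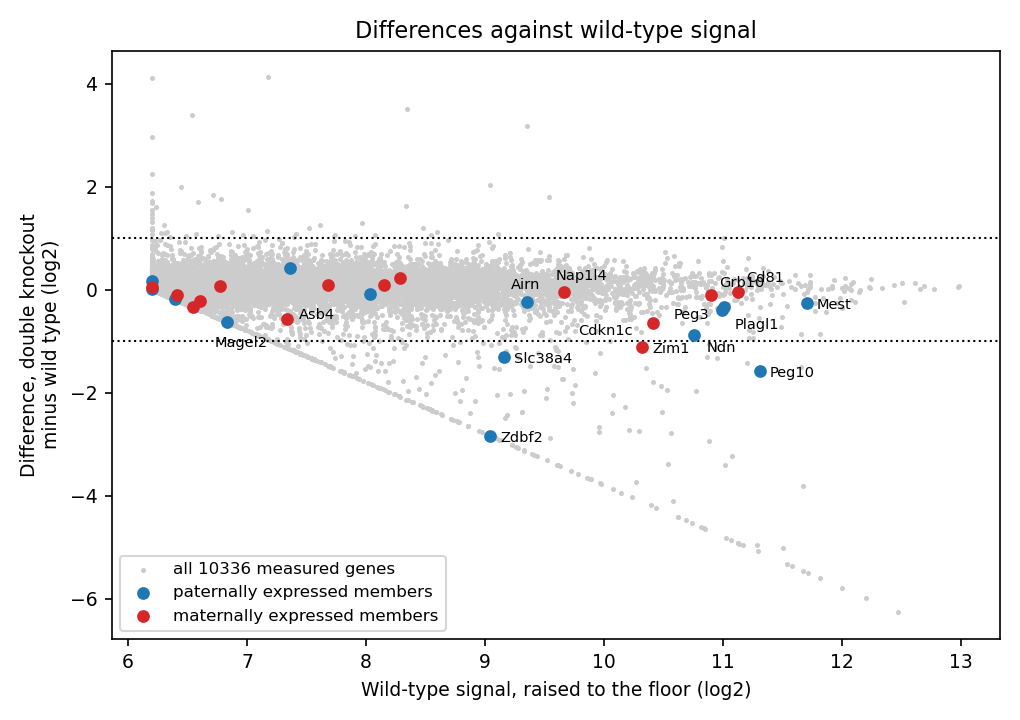
Log2 difference (double knockout minus wild type) against the wild-type log2 signal raised to the floor, for all 10336 measured genes in grey and the 28 measured members in colour; dotted lines mark 2-fold. Zdbf2 lies on the lower edge that the floor sets, Peg10, Slc38a4 and Zim1 lie below the lower dotted line, and no member lies above the upper.

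In the Peg3 domain both measured genes were lower, by unequal amounts. Peg3, the paternally expressed zinc finger gene of the domain, was at 11.01 and 10.68, a difference of -0.33. Zim1, expressed from the opposite parental copy, differed by -1.12. Usp29, which shares the promoter region of Peg3, was under the floor throughout (4.90 and 4.40). The next measured gene beyond Zim1 on the other side was Zfp444, which differed by 0.17 with the wild type at the floor.

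All 3 members of the Peg10 domain were lower, with the largest difference at Peg10 itself (-1.58). Asb4, a maternally expressed subunit of a ubiquitin ligase, was at 7.33 and 6.76, which is 1.49-fold lower. Ppp1r9a, which encodes an actin-binding partner of protein phosphatase and is imprinted in the placenta, was at 6.54 and under the floor at 6.16, and thus at least 1.26-fold lower. Sgce, the sarcoglycan gene that shares a bidirectional promoter region with Peg10, was at 8.94 and 8.82, a difference of -0.12. Sgce is not a member of the list, nor are Casd1 and Pon3, the second measured genes on either side of Peg10. Casd1, on the side of Sgce, was at 8.35 and 7.89, a difference of -0.46. Pon3, on the other side, was at 7.03 and 7.71, or 1.61-fold higher. Neighbours of this cluster thus differed in both directions.

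Mest, a paternally expressed gene of the hydrolase fold, was at 11.70 and 11.44, or 1.20-fold lower. Copg2, a coat protein gene that overlaps it tail to tail, was at 8.29 and 8.52, or 1.17-fold higher. The 2 genes differed in opposite directions, each by less than 1.5-fold. Once the median of all genes was shifted to 0, Mest was at -0.36 and Copg2 at 0.13. The latter is smaller than the SD of 0.22 between probe sets of a gene.

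The Kcnq1 domain, under 1 control region at the promoter of the noncoding Kcnq1ot1, was close to even except for Cdkn1c. Of its 11 listed genes, 8 were measured and 0 were at least 2-fold apart. This is near the background of 2.74% of all genes lower and 0.513% higher. Kcnq1, Tssc4 and Slc22a18 lay under the floor or less than 1 unit above it in the wild type. With the floor they could not read 2-fold lower. Cdkn1c, a cell cycle inhibitor that stops dividing cells as they differentiate, was at 10.41 and 9.77, or 1.56-fold lower. Of the other 7, those above the floor on both arrays lay between -0.09 and 0.10. The 7 were the potassium channel Kcnq1 (6.41 and 6.31), the tetraspanin Cd81 (11.12 and 11.08), the histone chaperone Nap1l4 (9.66 and 9.61), Tssc4 (6.77 and 6.85), the cholesterol synthesis enzyme Dhcr7 (7.68 and 7.77), the sterol-binding Osbpl5 (8.15 and 8.25) and the transporter Slc22a18. Slc22a18 was under the floor in the wild type (5.79) and at 6.26 in the double knockout, a deposited difference of 0.46. Phlda2, known to restrain placental growth, and Ascl2, a factor of the trophoblast, did not reach the floor on either array (5.29 and 5.36 for Phlda2, 4.05 and 4.23 for Ascl2). Nor did the 4 trophoblast markers with a probe set. In the neighbouring H19 domain, Igf2, the fetal growth factor that shares a control region with H19, was at 12.52 and 12.29, a difference of -0.24.

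In the Snrpn/Ube3a domain, whose human counterpart is affected in Prader-Willi and Angelman syndromes, the paternally expressed MAGE family genes were lower. Ndn, necdin, was at 10.76 and 9.87, which is 1.85-fold lower and, with the floor, next below the 4 leading genes. Magel2 was at 6.83 and under the floor at 5.72, at least 1.54-fold lower, and 2.17-fold lower without a floor. Atp10a, a lipid flippase, was at 6.60 and 6.39, a difference of -0.22. Peg12 was under the floor in the wild type (6.08) and just above it in the double knockout (6.22), and Mkrn3 was below it on both arrays (3.87 and 3.92). Few neuron markers were measured: of 10 listed, 3 exceeded the floor on the wild-type and 4 on the double-knockout array, with summed linear signals of 727 and 888. Of the 4 measured, Gap43 was lower (-0.17) and the other 3 higher. The part of neurons in the differences of Ndn and Magel2 was not tested.

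Outside these domains, Zdbf2 and Slc38a4 were at least 2-fold lower, as given above. The other members there that exceeded the floor on both arrays were within 1.5-fold. Grb10, the adaptor that damps insulin and growth factor signalling, was at 10.90 and 10.80, a difference of -0.10. Its neighbour Ddc, the enzyme that makes dopamine and serotonin, was at 6.40 and under the floor at 5.06, at least 1.14-fold lower. With no floor set, Ddc was 2.52-fold lower. Plagl1, a zinc finger factor that is known to regulate other imprinted genes, was at 11.00 and 10.61, or 1.31-fold lower. Airn, the noncoding RNA that silences the paternal Igf2r copy, was at 9.36 and 9.12, a difference of -0.23. Igf2r, the receptor that clears IGF2 and lies across from Airn, was at 10.10 and 9.75, a difference of -0.35. Both transcripts of that locus were thus lower, each by less than 1.5-fold. Impact, a regulator of translation under amino acid shortage, was at 8.03 and 7.95. Nnat, neuronatin, was at 7.36 and 7.78, or 1.34-fold higher, the highest difference among members above the floor on both arrays. It was 0.09 with the floor raised to the 75th percentile. Inpp5f, an inositol phosphatase, was under the floor in the wild type (6.17) and at 6.36 in the double knockout. Nap1l5 (4.98 and 5.14) and Rasgrf1 (4.45 and 4.65) did not reach the floor on either array.

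The study's arrays were then read by the parental copy from which a gene is known to be expressed. Of 21 paternally expressed genes 14 were measured, and of 18 maternally expressed genes also 14. The paternal group had a median difference of -0.29, with 3 genes lower by 2-fold or more, 0 higher and 11 below 0. The maternal group had a median of -0.07, with 1 gene lower by 2-fold or more, 0 higher and 9 below 0. Over all measured genes these shares were 2.74%, 0.513% and 32.2%. With the median of all genes shifted to 0, 12 genes of each group were below 0. These medians lie closer together than the spread within either group, which ran from -2.83 to 0.42 and from -1.12 to 0.23. The difference between the classes was not tested.

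The split by where imprinting is known separated the measured members further. Of the 28, 11 are known to be imprinted only in some tissues or stages, chiefly placenta, brain or heart, and their median was -0.04. At least 2-fold apart were 0 of these, which is near the background of 2.74% of all genes lower and 0.513% higher. In the wild type, Kcnq1, Ddc, Ppp1r9a, Atp10a, Tssc4 and Inpp5f lay under the floor or less than 1 unit above it. With the floor they could not read 2-fold lower, and the same holds for Magel2, Peg12 and Slc22a18 among the other 17. The median wild-type signal, raised to the floor, was 6.77 in the 11 and 9.36 in the other 17. The split by imprinting is thus also a split by signal level, and the 2 were not separated. Ddc was 2.52-fold lower without a floor. The other 17 held all 4 genes that were at least 2-fold lower, and their median was -0.39. Among these 17, the 12 paternally expressed genes had a median of -0.36 and the 5 maternally expressed genes (Zim1, Cdkn1c, Asb4, Grb10 and Slc22a18) a median of -0.57. The maternal median moved by this choice from -0.07 to -0.57, and the order of the 2 parental classes turned with it. Both classes held genes near 0 as well as genes well below it.

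**Figure D3:**
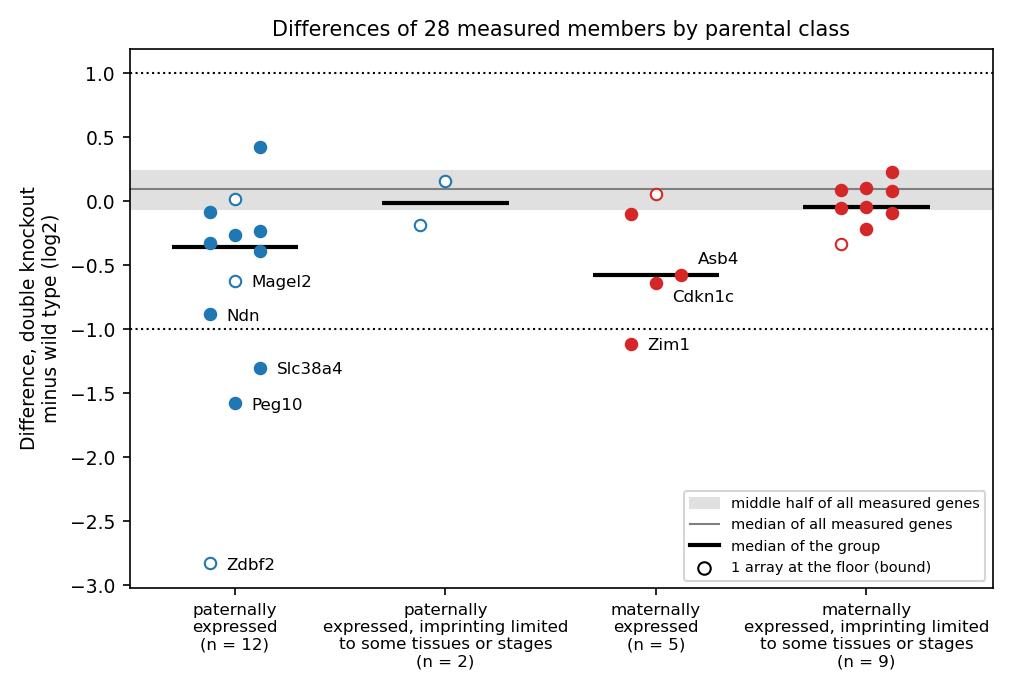
Log2 difference of each of the 28 measured members, by parental class and by whether imprinting is limited to some tissues or stages; open circles have 1 array at the floor, black bars are group medians, and the grey band spans the 25th to 75th percentile of all measured genes. All 4 genes past the dotted 2-fold line lie in the groups without such a limit, whose medians are -0.36 and -0.57. The median wild-type signal, raised to the floor, was 6.77 with such a limit and 9.36 without.

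Genes of the same loci that are not members, and genes that act on imprints, were read from lists. The latter set, keep or, as the demethylating Tet enzymes, remove the marks. Of 19 measured genes in the list of other imprinted or neighbouring genes, 1 was lower by 2-fold or more, 0 higher, and the median was -0.04. The lower gene was Herc3, a ubiquitin ligase gene that hosts Nap1l5 in an intron, at 7.44 and under the floor at 6.03, at least 2.35-fold lower. Of 17 measured genes that act on imprints, 0 were at least 2-fold apart, while 15 were above 0, beside 66.9% of all genes. Their median was 0.26, and 0.16 once that of all genes was shifted to 0. The largest differences were those of the demethylating enzyme Tet1 (0.38), the DNA methyltransferases Dnmt3a (0.34) and Dnmt1 (0.32) and the histone methyltransferase Ehmt2 (0.32). The 2 genes below 0 were Tet2 (-0.25), also a demethylating enzyme, and Zfp57 (-0.11). The median of the members thus lay below that of all genes, and the median of the genes that act on imprints above it.

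Other tissue also differed between the arrays. The 10 salivary gland markers were all higher by 2-fold or more (9 under either other scaling), with summed linear signals of 4063 and 21926. Of 4 measured adipocyte markers 3 (Car3, Fabp4 and Lpl) were at least 1.5-fold lower, and Pparg was higher (0.32). Adipoq, Cidec and Plin1 did not reach the floor on either array. The sums over the adipocyte markers with a probe set were 3738 and 2381, and Car3 was the brightest of them (11.49 and 10.76). Cartilage markers summed to 1619 and 2027, with Col2a1, Col11a1 and Sox9 above 0 and Acan below it (-0.32). Col9a1, Comp, Matn1 and Matn3 did not reach the floor on either array. Osteoblast markers summed to 13471 and 16071, and all 5 measured were above 0. Over the 34 members the sums were 23362 and 17106. All these sums add signals of different probe sets, so the brightest weigh most, and they are not amounts of RNA. The Y-linked Eif2s3y was at 2.38 on the wild-type and 6.55 on the double-knockout array. The part of these tissues, and of embryo sex, in the members' differences was not tested.

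**Figure D4:**
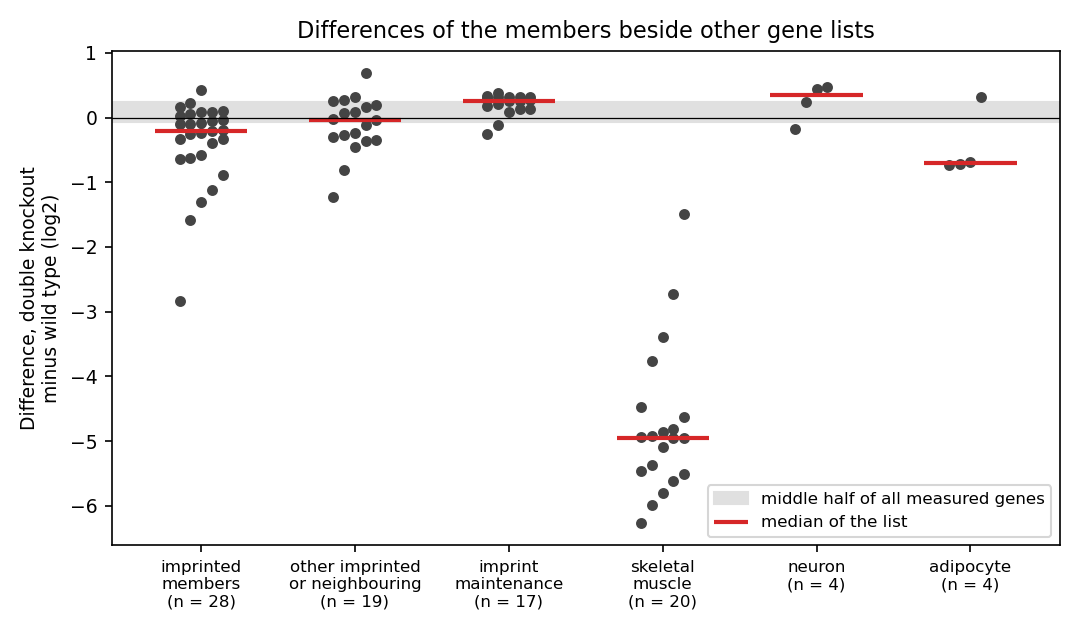
Log2 difference (double knockout minus wild type) of each measured gene in the member list and 5 other lists, with list medians in red and the 25th to 75th percentile of all measured genes in grey. The members have a median of -0.20 and reach down to -2.83, and the skeletal muscle markers lie between -6.26 and -1.49. The genes that act on imprints, labelled imprint maintenance and including the demethylating Tet enzymes, sit around 0.26.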

How the data were processed

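Total RNA of E18.5 mandible was hybridised to Affymetrix arrays, 1 per genotype. The deposited values are log2 signals, a base read from their range. The submitters' processing notes name MAS5 without a version. The step to logarithms, the background correction, the scaling between arrays and the genome build are not given in the sources used here. Gene names came from the platform annotation, in which 21789 of 35557 probe sets name 1 gene. Where a gene had several, that of the highest mean linear signal stood for it, and genes under the floor on both arrays were left out of counts. The array medians, 5.48 and 5.45, were close, and values were compared as deposited. The members, their classes and the lists were chosen with earlier results of these data known. All members were named. Other scalings, floors, thresholds, gene summaries and subsets were tried. The calculation was tested on simulated data in which only genes well above the floor were changed, and by a large step. That test covers neither signals near the floor nor small differences. Promoter windows came from RefSeq (GRCm38.p6). Python 3.11.15, pandas 2.3.3 and numpy 2.4.6 were used. The number of arrays limits the precision.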

Additional observations from a re-analysis of the deposited data

Results flagged for a closer look

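The probe set shared by Snurf and Snrpn, which enters no gene's value because it names both, was higher on the double-knockout array than on the wild-type array. It was under the floor at 6.17 in the wild type and above it at 6.42 in the double knockout, a deposited difference of 0.25. The other shared probe sets were lower. The one naming Gnas and Gnasas1 was at 11.07 and 10.88, and the one naming Ube3a and other genes was at 7.74 and 7.67.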

How the results depend on the processing

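The count of members at least 2-fold lower was 4 under either other scaling and under a floor at the 75th percentile. The median over probe sets left it at 4 by construction, as no member has more than 1 probe set. The count was 5 when all probe sets set the floor, and 6 when the floor was at the 25th percentile or absent. It was 7 at a threshold of 1.5-fold and 1, Zdbf2, at 3-fold, while no setting tried gave a member that much higher. The members' median ran from -0.30 to -0.10 over the scalings, floors and gene summaries. Without members whose imprinting is limited to some tissues it was -0.39, and that of the maternally expressed genes was -0.57. Single values moved by more than the spread of a probe set where a floor was involved: Zdbf2 was at -1.30 under a floor at the 75th percentile, and Magel2 at -1.11, Ddc at -1.34 and Slc22a18 at 0.46 without a floor. Nnat was at 0.09 under the former. No paired analysis was possible because each genotype has 1 array. Signals near the floor limit what can be said of 7 members whose difference is a bound and 6 below it.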

Other observations

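Beside the 4 members that were at least 2-fold lower, neighbouring measured genes in RefSeq order differed less and in both directions. The 6 first neighbours that are not members lay between -0.27 and 0.24. They were Eef1b2 and Adam23 beside Zdbf2, Slc38a2 and Pced1b beside Slc38a4, Sgce beside Peg10 and Zfp444 beside Zim1. Pced1b (6.11 and 6.44) and Zfp444 (5.90 and 6.37) were under the floor in the wild type, so their differences, 0.24 and 0.17, are bounds. The first neighbours that are members, Ppp1r9a beside Peg10 and Peg3 beside Zim1, were at -0.34 (a bound) and -0.33. The 8 second neighbours ran from -0.50 (Ndufs1, beside Zdbf2) to 0.68 (Pon3, beside Peg10). Slc38a2, a carrier of the same family as Slc38a4, was at 10.57 and 10.53. This reading was added after the values were seen.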
